A study of Mus musculus with 3 samples.

Results

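In spatial transcriptomes of thymus from mice with and without *Trp53*, 35 of the 54838 genes listed, all genes of the DNA damage response or of DNA repair, were chosen by symbol and followed in every section. They fall into 9 groups by role, namely damage signalling kinases, break sensing and chromatin response, homologous recombination, RecQ helicases, Fanconi anaemia crosslink repair, single-strand break and base excision repair, mismatch repair, nucleotide excision repair and single-stranded DNA binding. All 35 were detected in all sections.

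DNA damage is sensed by kinases and by chromatin-bound adaptors, which slow the cell cycle and direct the lesion to a pathway that fits it. Homologous recombination copies an intact sister chromatid and is therefore tied to the replicating cell. Mismatch repair acts on mispaired bases, and base excision and nucleotide excision repair act on altered bases. p53, the product of *Trp53*, acts below the signalling kinases and induces cell-cycle arrest or cell death. In the thymus, immature T cells divide in the cortex and cut and rejoin their own antigen receptor genes there, so that many cortical cells replicate DNA or carry programmed breaks.

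The sections come from the thymus of 3 female C57BL/6 mice, perfused with PBS before dissection, and were captured on BMKMANU S1000 slides, whose barcoded spots lie 4.8 µm apart and count each transcript once by a unique molecular identifier (UMI). Mouse 1134 (*Trp53*-/-, 17 weeks) gave the section KO1134, mouse 1308 (*Trp53*-/-, 21 weeks) gave KO1308, and mouse 1101 (*Trp53*+/+, 17 weeks) gave WT1101. KO denotes *Trp53*-/- and WT *Trp53*+/+ below. The exons that the KO allele lacks are not given in the sources used here, and the study treats such KO tissue as pre-neoplastic. The methods give a longer permeabilisation for KO than for WT tissue, so that permeabilisation and genotype cannot be told apart.

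The deposited UMIs amounted to 31237062 in KO1134, 21089885 in KO1308 and 41581477 in WT1101. The spots were pooled into squares of 27 µm (bins), those with at least 300 genes over tissue were kept, and a kept bin was called CD3-positive when it held at least 1 UMI of *Cd3d*, *Cd3e* or *Cd3g*, which encode the invariant chains of the T cell receptor complex. This gave 8286, 7846 and 20748 CD3-positive bins and 3723, 8294 and 6356 other bins in KO1134, KO1308 and WT1101. A bin holds more than a single cell, and a lower level in a bin can mean fewer cells of a type or less RNA per cell, which cannot be told apart. Levels are CPM, a gene's UMIs relative to all UMIs of the same bins. Intervals in brackets are exact 95% intervals for counting error alone. The spread between mice of a genotype is seen only in how far KO1134 and KO1308 lie apart. Between 148897 and 523094 spot names were shared by pairs of sections, since the slides use the same names for their positions. The bin statistics that the paper tabulates for mouse 1308 lie nearer to those of the section labelled KO1134, and the sections are named here by their labels.

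*Trp53* itself had 17.9 CPM in CD3-positive bins of KO1134, 26.5 CPM in KO1308 and 80.6 CPM in WT1101. The KO sections therefore stood at 0.222 (0.2 to 0.245) and 0.329 (0.290 to 0.373) of the WT level, in the direction of their labels. Since the deleted exons are not known here, part of the transcript outside the deletion may still be counted. The 6 T cell markers were all detected and summed to 1510, 2384 and 3138 CPM in CD3-positive bins, and the 8 cortex markers to 1069, 2512 and 3919 CPM. The 6 proliferation markers followed the same order, with 769, 1347 and 1701 CPM. Both KO sections were above WT in myeloid markers, with 1903, 1088 and 693 CPM, in B cell markers, with 312, 174 and 46.7 CPM, and in medulla markers, with 723, 741 and 174 CPM. Areas with more B cell than thymus marker UMIs held 1573, 281 and 0 of the CD3-positive bins. Without these areas, the median log2 ratio of the repair genes in KO1134 to WT was -0.31, against -0.40 with them. The part of the other markers in the differences between genotypes below was not tested.

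The first question was whether the repair genes differed between KO and WT in CD3-positive bins. The 35 genes together had 1394 CPM in KO1134, 1493 CPM in KO1308 and 1893 CPM in WT1101, and without *Brca1*, which stands apart below, they had 1159, 1446 and 1735 CPM. In KO1134, 26 of the 35 were below WT and 12 were at least 1.5-fold lower, whereas 18.6% of the 16505 genes tested were that much lower. None of the 35 was 1.5-fold higher in KO1134, against 25.1% of all genes. The median log2 ratio to WT was -0.40 for the repair genes and 0.01 for all genes tested. In KO1308, 18 of the 35 were below WT, 4 were at least 1.5-fold lower against 11% of all genes, and 1 was 1.5-fold higher against 30.3% of all genes. There the median log2 ratio was -0.03 for the repair genes and 0.17 for all genes. Both KO sections are set beside the same WT section.

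**Figure D1:**
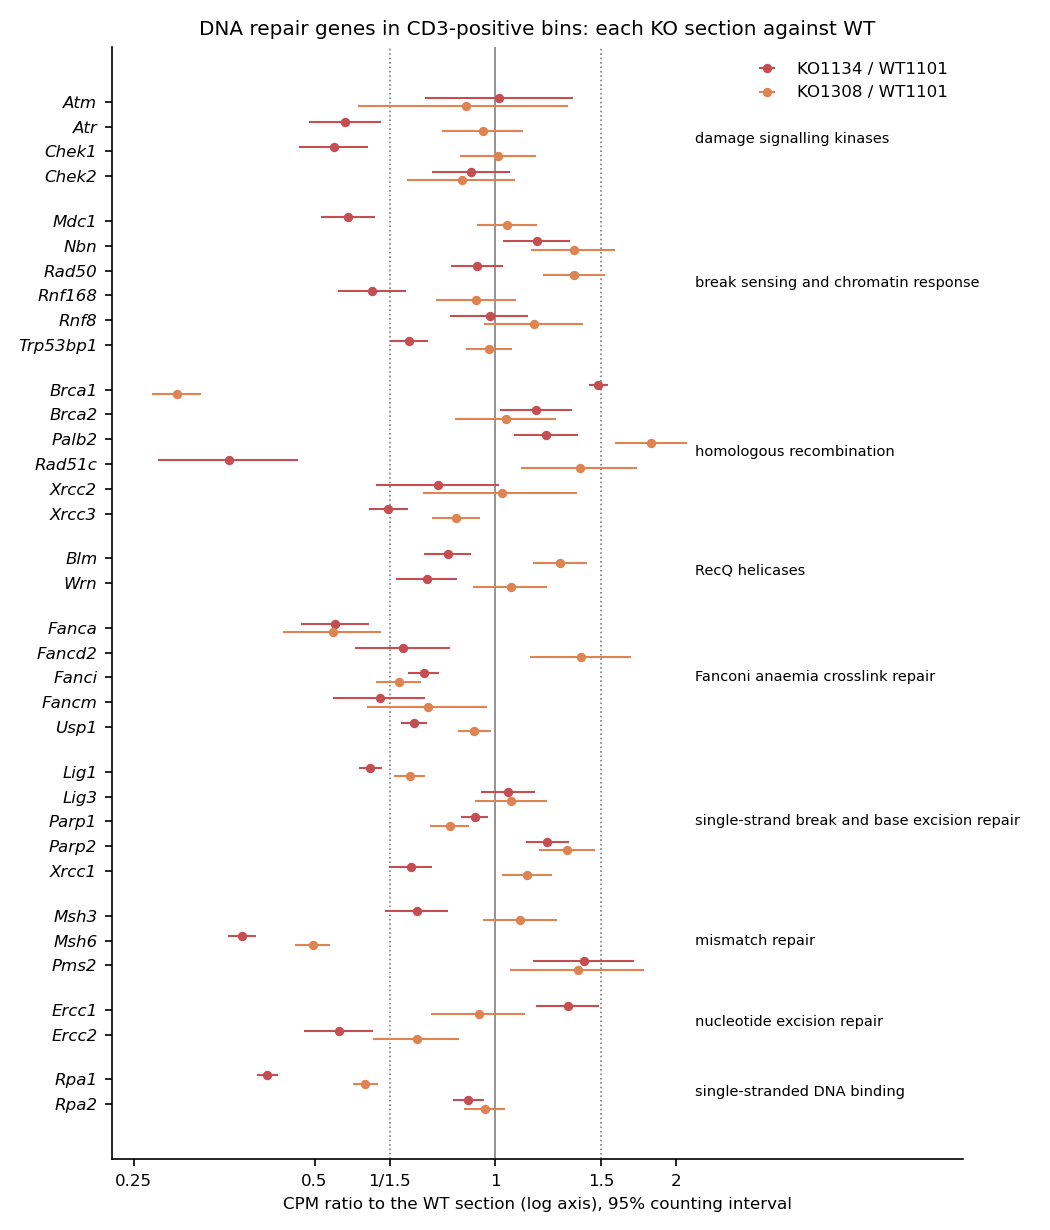
CPM of each of the 35 repair genes in CD3-positive bins of KO1134 (red) and KO1308 (orange) divided by the CPM in WT1101, on a log axis, with 95% counting intervals and with dotted lines at 1.5-fold. *Msh6*, *Rpa1* and *Fanca* lie left of the lower line in both KO sections, and *Brca1* lies at 1.48 in KO1134 and at 0.295 in KO1308.

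In the test on section sums, edgeR's quasi-likelihood test with Benjamini-Hochberg adjustment called 0 of the 35 between genotypes, among 0% of all genes raised and 0.00606% lowered in KO. DESeq2 also called 0 of the 35. At an unadjusted p under 0.05 edgeR gave 3 of the 35, beside 11.5% of all genes, which were *Msh6* (adjusted p = 0.396), *Rpa1* (adjusted p = 0.424) and *Fanca* (adjusted p = 0.433). With 2 KO sections and 1 WT section the fit had 1 residual degree of freedom and took the WT section to vary like the KO sections, so a count of 0 says little about whether these genes differ.

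*Msh6*, *Rpa1* and *Fanca* were the members at least 1.5-fold below WT in both KO sections. *Msh6* encodes a protein that recognises base mismatches and lies on chromosome 17 from 87975062 to 87990892 (GRCm38, + strand). It had 72.4 CPM (69.1 to 75.9) in KO1134, 94.98 CPM (89.1 to 101) in KO1308 and 191 CPM (187 to 196) in WT1101, which are 0.378 and 0.496 of WT. Both KO sections lay well below WT, and KO1134 stood at 0.762 of KO1308. *Rpa1* encodes the large subunit of replication protein A, which coats single-stranded DNA during replication and repair, and lies on chromosome 11 from 75298166 to 75348324 (- strand). Its levels were 131, 191 and 315 CPM in KO1134, KO1308 and WT1101, or 0.417 and 0.608 of WT. Its partner *Rpa2*, encoding the middle subunit, had 73.5, 78.2 and 81.5 CPM, and its ratios of 0.902 and 0.960 stayed near 1. Of the subunits, *Rpa1* was thus low in both KO sections, while *Rpa2* lay near WT.

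*Fanca*, a subunit of the Fanconi anaemia core complex that marks crosslinked DNA for repair, lies on chromosome 8 from 123268300 to 123318576 (- strand). It had 13.0 CPM (11.6 to 14.5) in KO1134, 12.9 CPM (10.8 to 15.3) in KO1308 and 24.0 CPM (22.4 to 25.7) in WT1101. The KO sections agree within counting error for this gene, at 0.542 and 0.537 of WT. Across the annotation (GENCODE M21), 920 exon bases of *Fanca* overlap *Zfp276* on the opposite strand at its 3′ end, and *Msh6* shares 34 exon bases with *Fbxo11* in the same way. Whether the counting used strand is not given in the sources used here, so transcripts of such pairs may not have been told apart. In all, 13 of the 35 members overlap a protein-coding gene. On the opposite strand *Fanci* shares 921 exon bases with *Polg*, *Ercc2* 744 with *Klc3*, *Lig3* 1826 with *Rffl* and *Trp53bp1* 2130 with *Tubgcp4*. On the same strand *Rnf8* shares 1542 with *Gm28043* and *Pms2* 394 with *Gm42421*, which counting by strand would not separate.

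The other Fanconi anaemia genes lay between 0.641 and 0.759 of WT in KO1134 and between 0.690 and 1.39 in KO1308. *Fanci* and *Fancd2* encode the pair of proteins that is ubiquitinated at the crosslink. *Fanci* had 66.5, 60.4 and 87.5 CPM in KO1134, KO1308 and WT1101, and was lower in both KO sections. *Fancd2* had 7.34, 14.5 and 10.5 CPM, so that its KO sections fell on either side of WT. *Usp1*, the enzyme that removes the ubiquitin again, had 95.3, 120 and 130 CPM. *Fancm*, which moves along DNA at stalled forks, had 7.63, 9.20 and 11.9 CPM, with ratios of 0.641 (0.536 to 0.765) and 0.773 (0.612 to 0.969).

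Of the damage signalling kinases, *Atr* and *Chek1* were past 1.5-fold below WT in KO1134. *Atr*, the kinase that responds to single-stranded DNA at stalled forks, had 12.0 CPM in KO1134, 20.3 CPM in KO1308 and 21.3 CPM in WT1101. *Chek1*, the checkpoint kinase that ATR activates, had 12.8, 24.1 and 23.8 CPM. Both genes were at 0.563 and 0.538 of WT in KO1134 and at 0.953 and 1.01 in KO1308. The arm that responds to double-strand breaks lay nearer to WT. *Atm* had 3.63, 3.20 and 3.57 CPM, from 246 UMIs in all CD3-positive bins, and *Chek2*, its target, had 11.8, 11.4 and 13.0 CPM. The ratio of *Atm* in KO1308 had an interval from 0.590 to 1.32, and a difference within it was not detectable at this depth.

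Among the genes of break sensing, *Mdc1* and *Rnf168* were past 1.5-fold in KO1134. *Mdc1*, the adaptor that binds phosphorylated histone H2AX at a break, had 20.8, 38.1 and 36.5 CPM in KO1134, KO1308 and WT1101. *Rnf168*, a ubiquitin ligase that extends the mark laid by RNF8, had 13.8, 20.5 and 22.1 CPM, and *Rnf8* had 12.3, 14.6 and 12.6 CPM. KO1308 lay at 1.04 of WT for *Mdc1* and at 0.930 for *Rnf168*. *Nbn* and *Rad50* encode subunits of the complex that first binds broken ends. *Nbn* was above WT in both KO sections, with 18.3, 21.1 and 15.6 CPM, or 1.17 (1.03 to 1.33) and 1.35 (1.15 to 1.58) of WT. *Rad50* had 26.1, 38.0 and 28.0 CPM, near WT in KO1134 (0.932) and above it in KO1308 (1.35). *Trp53bp1*, whose product 53BP1 protects broken ends, had 47.3, 64.3 and 65.8 CPM.

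Homologous recombination held the widest ratios. *Brca1*, which starts end resection and recruits PALB2, lies on chromosome 11 from 101488764 to 101551955 (- strand) and had 235 CPM (228 to 241) in KO1134, 46.6 CPM (42.5 to 50.9) in KO1308 and 158 CPM (154 to 162) in WT1101. The KO sections lay on either side of WT and differed from each other 5.04-fold. *Palb2*, which bridges BRCA1 and BRCA2, was the member past 1.5-fold higher in KO1308, with 20.5, 30.6 and 16.8 CPM and ratios of 1.21 (1.08 to 1.37) and 1.82 (1.58 to 2.09). *Brca2*, which acts with PALB2 in strand exchange, had 15.3, 13.7 and 13.1 CPM, near WT in both. *Rad51c*, *Xrcc2* and *Xrcc3* also act in homologous recombination. *Rad51c* had 2.93, 11.2 and 8.12 CPM, which is the lowest ratio of all members in KO1134, 0.361 (0.274 to 0.469), beside 1.38 (1.10 to 1.72) in KO1308. *Xrcc3* was below WT in both KO sections, with 43.2, 56.1 and 65.1 CPM, and *Xrcc2* had 4.70, 6.00 and 5.86 CPM with both intervals spanning 1.

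The level of *Brca1* was similar in the other bins of each section, with 250 CPM in other bins of KO1134, 40.1 CPM in KO1308 and 158 CPM in WT1101. At least 1 UMI of *Brca1* was found in 41.2% of the tissue bins of KO1134, 4.34% of those of KO1308 and 19.7% of those of WT1101, and the highest bin held 7 UMIs. By a limit chosen after the values were seen, 19 genes with over 20 CPM in WT1101 had a level in KO1134 more than 4 times and in WT1101 more than 2.5 times that in KO1308, *Brca1* among them. *Wnk4* was another, with 400 CPM, 7.16 CPM and 184 CPM in KO1134, KO1308 and WT1101, and *Hsd17b11* had 262, 38.8 and 194 CPM. Of the 19, 12 are predicted genes with Gm symbols. Whether the preparation or alignment of the KO1308 library differed was not tested, and the ratios of *Brca1* to WT are values of single sections.

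**Figure D2:**
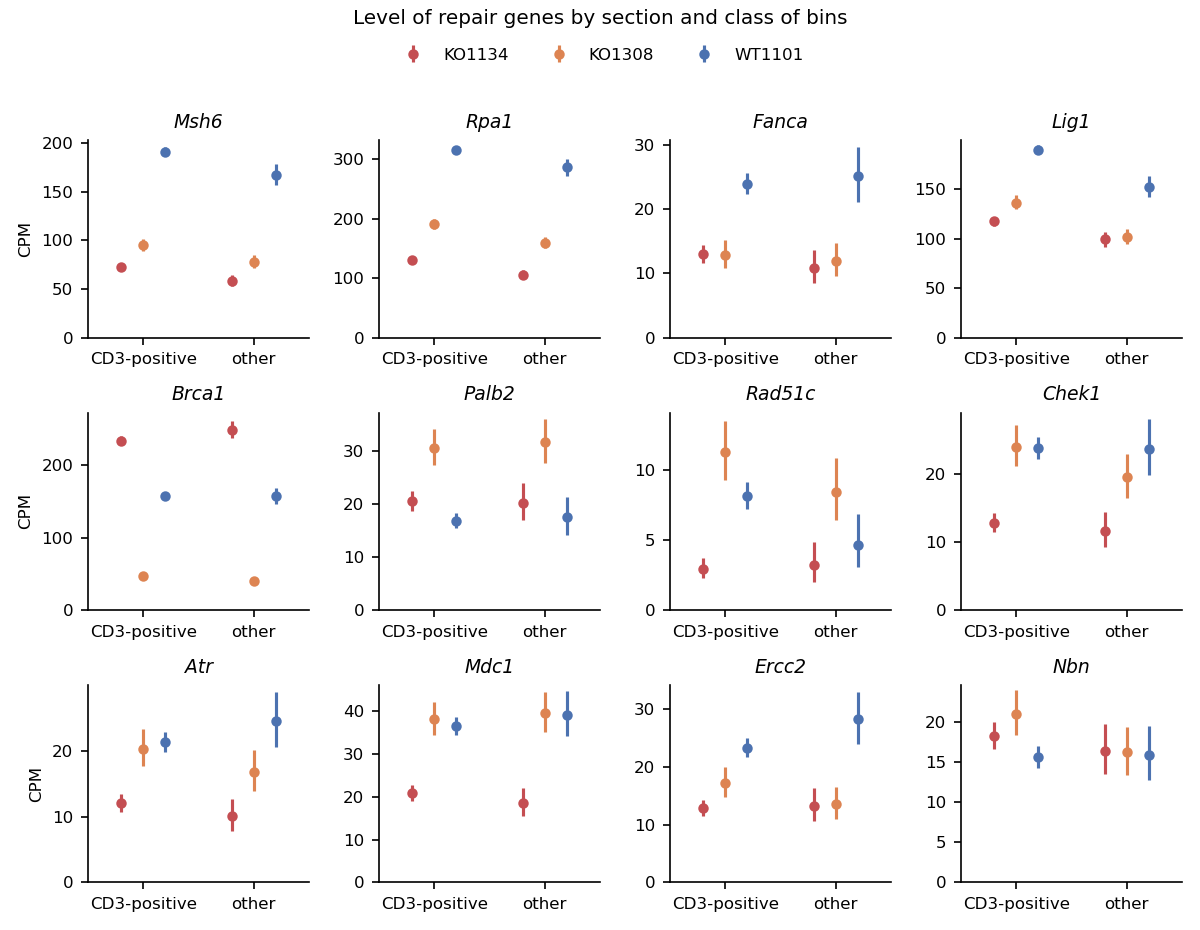
CPM of 12 repair genes in CD3-positive and other bins of KO1134 (red), KO1308 (orange) and WT1101 (blue), with 95% counting intervals and axes from 0. The order of the sections for *Msh6*, *Rpa1* and *Brca1* is the same in both classes of bins.

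The RecQ helicases unwind recombination intermediates. *Blm* had 31.3, 48.1 and 37.5 CPM in KO1134, KO1308 and WT1101, and *Wrn* had 18.2, 25.1 and 23.6 CPM. For both genes KO1134 was below WT, at 0.833 and 0.769, and KO1308 above it, at 1.28 and 1.06.

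In single-strand break and base excision repair, *Lig1* was lower in both KO sections. This gene encodes the ligase that joins Okazaki fragments and repair patches, and had 118, 137 and 190 CPM in KO1134, KO1308 and WT1101, or 0.619 (0.592 to 0.647) and 0.720 (0.679 to 0.762) of WT. *Parp2*, a sensor of strand breaks, was above WT in both, with 42.8, 46.2 and 35.1 CPM. *Parp1*, the main sensor of strand breaks, had 94.6, 86.0 and 102 CPM, with ratios of 0.924 and 0.840. *Xrcc1*, the scaffold of this pathway, had 35.8, 55.9 and 49.5 CPM, and *Lig3*, the ligase bound to it, had 26.3, 26.7 and 25.1 CPM with both intervals spanning 1.

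The other members of mismatch repair did not follow *Msh6*. *Msh3*, which recognises larger loops, had 16.9, 25.2 and 22.9 CPM in KO1134, KO1308 and WT1101. *Pms2*, the endonuclease subunit that acts after recognition, had 8.62, 8.42 and 6.15 CPM, or 1.402 (1.15 to 1.70) and 1.37 (1.06 to 1.77) of WT. In nucleotide excision repair *Ercc1*, a subunit of the nuclease that cuts 5′ of a lesion, had 21.6, 15.4 and 16.4 CPM. *Ercc2*, a helicase of the general factor TFIIH, had 12.8, 17.2 and 23.3 CPM and was below WT in both KO sections, at 0.549 (0.480 to 0.626) and 0.740 (0.625 to 0.871).

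The ratios to WT were next read within zones of each section. Within CD3-positive bins, a bin was called cortex-rich when the 7 × 7 bins around it held a larger share of cortex markers than the section as a whole and no larger share of medulla markers, and medulla-rich in the reverse case. In cortex-rich bins of KO1134, 7 of the 35 were at least 1.5-fold below WT (21.3% of all genes) and 3 were above (23.7%). In those of KO1308, 3 were below (9.74%) and 3 above (24.2%). Medulla-rich bins tested 32 of the 35, of which 14 were below WT in KO1134 (18.6% of all genes) and 0 above (11.3%), and 9 were below in KO1308 (15.5%) and 3 above (20.2%). The median log2 ratio was -0.20 in cortex-rich and -0.57 in medulla-rich bins of KO1134, and 0.09 and -0.16 in KO1308. Each section set its own limit for the zones, and the sections differ in cortex and medulla markers. A zone of KO1134 or KO1308 therefore need not hold the same tissue as that of WT1101, and the part of this in the ratios was not tested. Medulla-rich bins numbered 2745, 2533 and 4704 in KO1134, KO1308 and WT1101, of which 1726, 2286 and 4704 lay outside the B-rich areas. The medulla-rich bins of KO1134 thus include much of its B-rich area, whose part in these ratios was not tested. *Lig1* lay nearer to WT in cortex-rich bins, with 171, 178 and 202 CPM in cortex-rich bins of KO1134, KO1308 and WT1101 and 53.7, 63.2 and 106 CPM in medulla-rich bins. *Msh6* was more than 1.5-fold below WT in both zones of both KO sections, with 94.98, 128 and 203 CPM in cortex-rich bins and 44.9, 49.9 and 146 CPM in medulla-rich bins. *Fanca* was also below WT in both zones and both KO sections, by ratios of 0.534 to 0.582. *Rpa1*, whose levels by zone are given below, was not 1.5-fold below WT in cortex-rich bins of KO1308.

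In other bins, those without a CD3 UMI, 34 of the 35 could be tested. Of these bins 2607, 6566 and 5341 lay in the thymus area of KO1134, KO1308 and WT1101. Other bins were shallower than CD3-positive bins, with a mean of 1845, 875 and 881 UMIs against 2927, 1316 and 1686 UMIs. A bin without a CD3 UMI can thus still hold T cells, and both classes come from the same sections. In KO1134, 16 were at least 1.5-fold below WT (25.8% of all genes) and 1 above (18.3%). In KO1308, 6 were below (17.3%) and 2 above (21.9%). The edgeR test called 0 of the 34, among 0.299% of all genes raised and 0.0292% lowered, 4 had an unadjusted p under 0.05 beside 11.1% of all genes (*Msh6*, *Fanca*, *Rpa1* and *Ercc2*) and DESeq2 called 0. *Msh6* had 58.4, 78.3 and 168 CPM in KO1134, KO1308 and WT1101, *Rpa1* had 106, 159 and 286 CPM, and *Fanca* had 10.9, 12.0 and 25.2 CPM, so these 3 genes were past 1.5-fold in both KO sections here too. So were *Ercc2*, with 13.2, 13.5 and 28.2 CPM, and *Fanci*, with 62.2, 51.0 and 94.3 CPM.

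Within sections, the repair genes were compared between CD3-positive and other bins with the section as a block, so that the 3 mice were the replicates. edgeR called 0 of the 35, while 0.069% of all genes were raised and 0.701% lowered in CD3-positive bins. At an unadjusted p under 0.05 there were 7, beside 21.6% of all genes, and DESeq2 called 0. The smallest adjusted p was that of *Lig1*, with a log2 fold change of 0.35 ± 0.07 (SE) and an adjusted p of 0.0801. Its CD3-positive level was 1.18, 1.34 and 1.24 times the level in other bins of KO1134, KO1308 and WT1101, so all 3 sections leaned the same way. Without the WT section *Lig1*, *Parp2* and *Rpa1* were raised, 3 of the 35, where 3.36% of all genes were raised and 6.75% lowered. The difference between the classes of bins was not called to depend on genotype for any member (0 of the 35 by edgeR and by DESeq2, 1 at an unadjusted p under 0.05 beside 12.3% of all genes), whereas 1.22% of all genes had a positive and 2.45% a negative interaction.

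More of the repair genes differed between the zones. Of the 35 genes, 12 rose and 0 fell in cortex-rich against medulla-rich CD3-positive bins, where 8.79% of the 15982 genes tested rose and 13.2% fell. The median log2 fold change was 0.47 for the repair genes and 0.02 for all genes tested, and DESeq2 called 8. In the thymus area alone 9 of the 35 rose, where 872 of 15539 genes tested rose, and *Xrcc1*, *Fanci* and *Palb2* were not called. *Chek1* and *Lig1* had the largest differences. *Chek1* had 19.5, 35.3 and 25.4 CPM in cortex-rich bins of KO1134, KO1308 and WT1101 and 4.58, 8.86 and 16.3 CPM in medulla-rich bins, a log2 fold change of 1.52 ± 0.29 (adjusted p = 0.0081). *Lig1*, whose levels are given above, had 1.36 ± 0.17 (adjusted p = 0.0016). In each section the cortex-rich level was the higher for both genes, by 4.25, 3.98 and 1.56 times for *Chek1* and by 3.19, 2.82 and 1.90 times for *Lig1*.

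**Figure D3:**
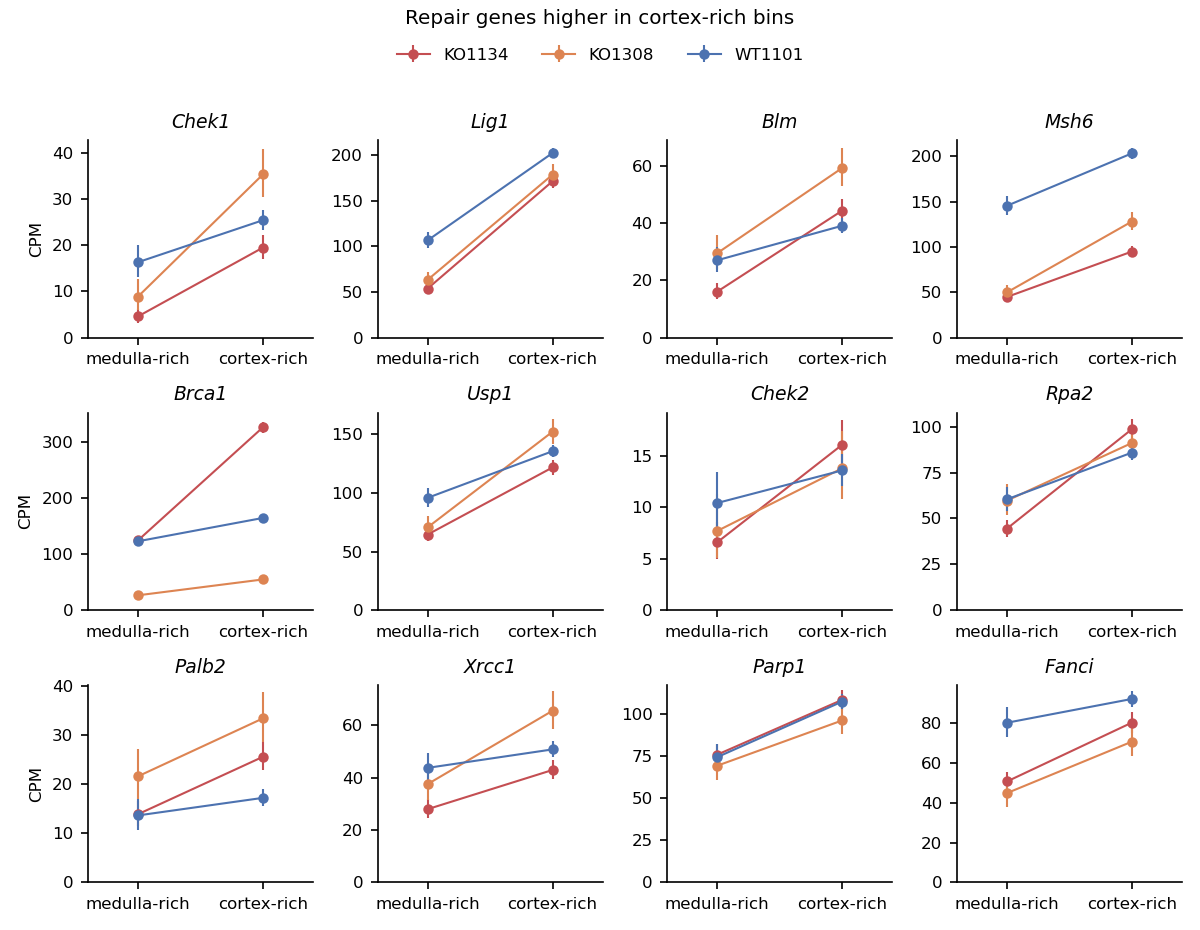
CPM of the 12 repair genes that rose in cortex-rich against medulla-rich CD3-positive bins of KO1134 (red), KO1308 (orange) and WT1101 (blue), with 95% counting intervals and axes from 0. All 36 lines rise to the right, and for *Chek1* the cortex-rich level is 4.25, 3.98 and 1.56 times the medulla-rich level.

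The other genes called came from recombination, crosslink, mismatch and single-strand repair. *Brca1* had 327, 54.7 and 165 CPM in cortex-rich bins of KO1134, KO1308 and WT1101 and 125, 26.3 and 123 CPM in medulla-rich bins, with a log2 fold change of 0.95 ± 0.19 (adjusted p = 0.0095). The cortex-rich level was thus higher in each section although the sections differ widely in the gene. *Blm* had 44.4, 59.3 and 39.1 CPM against 16.1, 29.5 and 27.1 CPM (1.00 ± 0.20, adjusted p = 0.0088). *Msh6* differed by 0.96 ± 0.18 (adjusted p = 0.0067), so that the mismatch gene which was low in both KO sections was higher in the cortex-rich bins of each. *Usp1* had 122, 152 and 136 CPM against 64.5, 70.6 and 95.9 CPM (0.84 ± 0.15, adjusted p = 0.0067). *Rpa2* had 98.6, 91.1 and 85.9 CPM against 44.4, 59.7 and 60.4 CPM (0.76 ± 0.16, adjusted p = 0.0128). These 5 genes with *Chek1* and *Lig1* were called whichever section was left out, when 9.8%, 6.16% and 7.79% of all genes were raised without KO1134, KO1308 and WT1101.

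The remaining 5 calls were smaller or rested on more sections. *Chek2* rose by 0.84 ± 0.25 (adjusted p = 0.0447), *Palb2* by 0.62 ± 0.19 (adjusted p = 0.0484), *Xrcc1* by 0.54 ± 0.16 (adjusted p = 0.044), *Parp1* by 0.51 ± 0.14 (adjusted p = 0.032) and *Fanci* by 0.50 ± 0.15 (adjusted p = 0.0428). In the 3 sections *Parp1* was 1.43, 1.39 and 1.44 times higher in cortex-rich bins, and *Fanci* 1.58, 1.58 and 1.15 times. Without KO1308 and likewise without WT1101 none of these 5 was called, and without KO1134 *Chek2*, *Palb2* and *Fanci* were not. No gene of break sensing or nucleotide excision repair was called. *Rnf168* (0.55 ± 0.19, adjusted p = 0.071) and *Fancd2* (0.82 ± 0.27, adjusted p = 0.061) lay just outside the threshold.

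*Atr* and *Rpa1* differed between sections in their zone. *Rpa1* had 119 CPM in cortex-rich and 155 CPM in medulla-rich bins of KO1134, but 230 and 131 CPM in KO1308 and 325 and 251 CPM in WT1101. *Atr* had 8.98 and 16.0 CPM in KO1134, 22.7 and 16.2 CPM in KO1308 and 22.7 and 18.6 CPM in WT1101. For both genes KO1134 was lower in the cortex-rich bins and the other sections were higher there. In an interaction of zone and genotype, edgeR called 0 of the 35, beside 0.025% of all genes with a positive and 0.00626% with a negative interaction, and 1 member, *Chek1*, had an unadjusted p under 0.05, beside 3.81% of all genes (log2 difference 1.29 ± 0.50, adjusted p = 1 in the edgeR fit). DESeq2 was not run for this interaction. Its edgeR fit had 1 residual degree of freedom and 1 WT section, so a count of 0 says little about whether the zone differences depend on genotype.

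**Figure D4:**
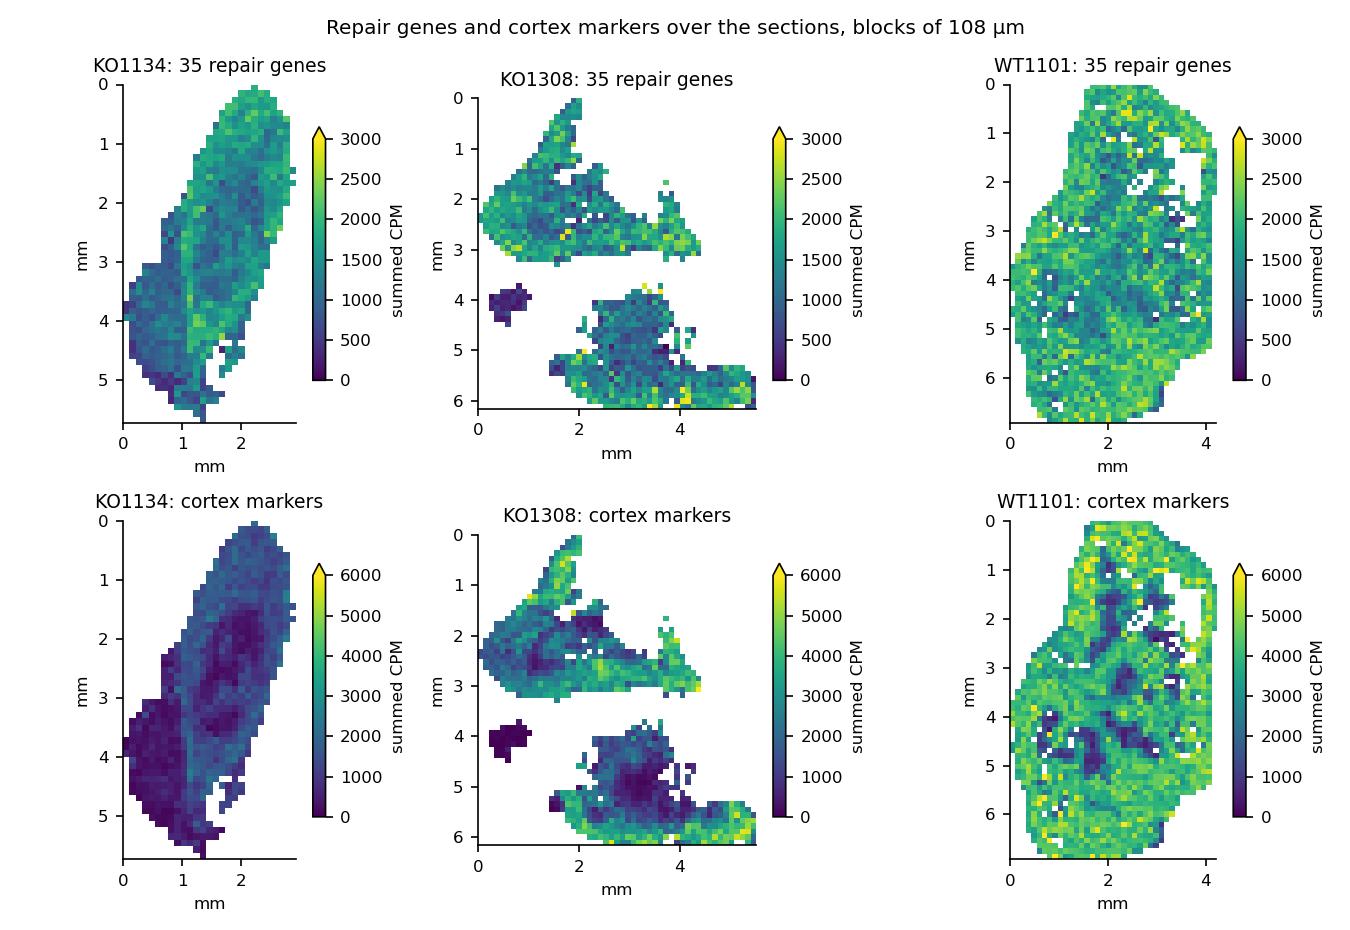
Summed CPM of the 35 repair genes (top) and of the cortex markers (bottom) in blocks of 4 by 4 bins with at least 8 tissue bins, with distances in mm and colour scales capped at 3000 and 6000 CPM. In KO1134 and KO1308 the areas low in cortex markers are also low in repair genes, whose summed level was 1694 CPM in cortex-rich and 1061 CPM in medulla-rich CD3-positive bins of KO1134.

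The zones also differ in dividing cells. Proliferation markers had 1160, 1869 and 1808 CPM in cortex-rich bins of KO1134, KO1308 and WT1101 and 304, 559 and 965 CPM in medulla-rich bins, while myeloid markers had 1105, 575 and 489 CPM against 2806, 1940 and 1657 CPM. When bins with a UMI of a proliferation marker were left out, 30 of the 35 genes could be tested and 3 were raised in cortex-rich bins, where 2.87% of all genes were raised and 4.94% lowered. They were *Lig1* (1.36 ± 0.22, adjusted p = 0.0115), *Brca1* (1.11 ± 0.24, adjusted p = 0.026) and *Msh6* (0.95 ± 0.18, adjusted p = 0.019). *Chek1* was not called there, with a log2 fold change of 1.48 ± 0.50 and an adjusted p of 0.115. These bins are fewer, with 385, 803 and 1665 cortex-rich and 1378, 1414 and 2126 medulla-rich bins in KO1134, KO1308 and WT1101, and a bin without such a UMI can still hold dividing cells.

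CD3-positive bins with at least 1 UMI of a proliferation marker were then set against those with none. Of the 35 genes, 5 rose and 0 fell, among 3.63% of all genes raised and 5.47% lowered, and DESeq2 called 6. *Chek1* had 15.6, 27.4 and 25.2 CPM in bins with a proliferation-marker UMI of KO1134, KO1308 and WT1101 and 4.91, 14.4 and 15.2 CPM in the rest (1.07 ± 0.19, adjusted p = 0.0112). *Lig1* had 142, 152 and 202 CPM against 48.8, 93.4 and 110 CPM (1.03 ± 0.15, adjusted p = 0.0054). Both were higher in all 3 sections. *Blm* rose by 0.81 ± 0.16 (adjusted p = 0.0147), *Usp1* by 0.54 ± 0.11 (adjusted p = 0.0184) and *Rpa2* by 0.54 ± 0.13 (adjusted p = 0.037). *Brca1* had an adjusted p of 0.059, with 270.5, 50.04 and 160 CPM against 132, 36.4 and 148 CPM, and its difference in WT1101 was within counting error (1.08, 0.997 to 1.17).

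Without KO1134 there were 10 calls, with *Parp1*, *Fancd2*, *Xrcc1*, *Rpa1* and *Msh6* added, where 9.07% of all genes were raised and 11.5% lowered. Bins with a proliferation-marker UMI were deeper, with a mean of 3034, 1475 and 1862 UMIs against 2659, 1002 and 1039 UMIs, and when every bin was thinned to 500 UMIs *Lig1* was the only one of 30 tested members called, beside 0.661% of all genes raised.

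**Figure D5:**
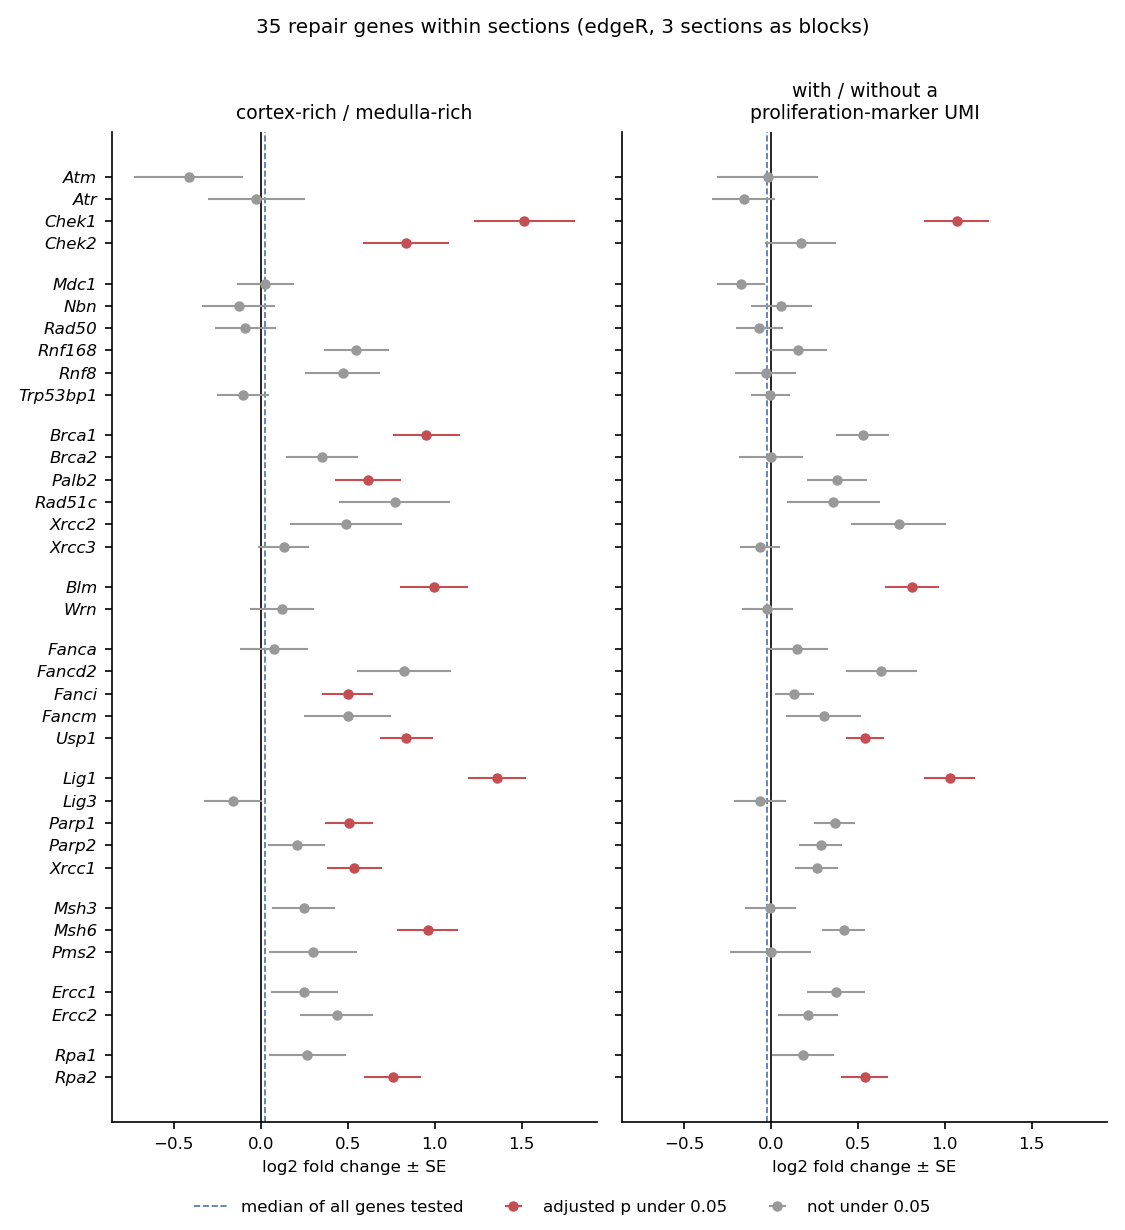
Log2 fold change ± SE of each of the 35 repair genes in the edgeR fits with the section as a block, for cortex-rich against medulla-rich bins (left) and for bins with against bins without a proliferation-marker UMI (right), red where the adjusted p was under 0.05. On the left 12 genes and on the right 5 genes are red, all above 0, and the dashed lines mark the medians of all genes tested, 0.02 and -0.02.

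Further genes of the same pathways were read beside the 35. Of 88 other genes of these pathways, 25 rose and 2 fell in cortex-rich bins, beside 8.79% and 13.2% of all genes. In bins with a proliferation-marker UMI 17 rose and 0 fell, beside 3.63% and 5.47% of all genes. *Clspn*, the adaptor through which ATR activates CHK1, rose in both, by 1.59 ± 0.19 (adjusted p = 0.0014) and 1.20 ± 0.14 (adjusted p = 0.0045). *Bard1*, the partner of BRCA1, rose by 1.46 ± 0.21 (adjusted p = 0.0027) and 1.04 ± 0.17 (adjusted p = 0.0096). Between genotypes, 30 of the 88 were at least 1.5-fold below WT in KO1134 (18.6% of all genes) and 5 above (25.1%). In KO1308, 5 were below (11%) and 9 above (30.3%). The median log2 ratios of the 88 were -0.41 in KO1134 and 0.02 in KO1308. *Neil3*, a DNA glycosylase, had the largest rise in cortex-rich bins (1.81 ± 0.25, adjusted p = 0.0022). The lowest ratio to WT was that of *Gtf2h4*, a TFIIH subunit, with 17.7, 114 and 195 CPM in KO1134, KO1308 and WT1101, and the highest that of *Fan1*, a nuclease of crosslink repair, with 1.07, 11.2 and 1.43 CPM. *Nabp1*, another single-stranded DNA binding protein, was low in both, with 78.7, 112 and 339 CPM.

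The 9 genes of non-homologous end joining, the pathway that also closes the cuts of antigen receptor rearrangement, were lower by median than the 35, at 0.485 and 0.675 of WT in KO1134 and KO1308. At least 1.5-fold below WT were 6 of the 9 in KO1134 (18.6% of all genes) and 4 of the 9 in KO1308 (11%). *Lig4*, the ligase of this pathway, had 42.5, 51.5 and 107 CPM in KO1134, KO1308 and WT1101, and *Xrcc6*, which encodes Ku70, had 171, 238 and 352 CPM. Both rose in cortex-rich bins, *Xrcc6* by 1.60 ± 0.22 (adjusted p = 0.0021) and *Lig4* by 1.59 ± 0.27 (adjusted p = 0.0053). edgeR called none of these 9 and none of the 88 between genotypes in CD3-positive bins.

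Since E2F factors and the CHR element are known to control many genes of replication and of the later cell cycle, the 250 bases before the start of each gene were read for their letters on both strands. RefSeq promoters (GRCm38.p6) were found for 29 of the 35 members, 32 promoters in all. The E2F words searched were TTTCCCGC, TTTGGCGC, TTTCGCGC and TTTGCCGC, and 4 of the 32 promoters (12.5%) held at least one, against 1.86% of 32851 promoters. The CHR words TTTGAA and TTCGAA were in 2 of the 32 (6.25%) and in 17.1% of all. Of the members that rose in cortex-rich bins, 1 of 13 promoters held an E2F word, beside 3 of 19 promoters of the other members. A match is only a match of letters, and for 24 of the 32 promoters the first transcribed bases were found in a transcript of the gene, *Brca2* and *Mdc1* not among them. The 4 windows are shown because they are the member promoters with such a word, 60 bases each, 5′ to 3′ along the gene, with the matched letters in capitals (in *Msh3* 2 words overlap).
Chek2, chr5:110839805-110839864, + strand: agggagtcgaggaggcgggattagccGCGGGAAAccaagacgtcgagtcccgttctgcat
Brca2, chr5:150522427-150522486, + strand: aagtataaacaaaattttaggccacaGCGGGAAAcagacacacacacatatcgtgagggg
Msh3, chr13:92355170-92355229, - strand: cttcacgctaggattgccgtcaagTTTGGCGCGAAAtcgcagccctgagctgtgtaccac
Mdc1, chr17:35841438-35841497, + strand: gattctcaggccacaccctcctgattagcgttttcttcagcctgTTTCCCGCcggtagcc
Of these 4 genes *Chek2* rose in cortex-rich bins, whereas *Brca2* (0.35 ± 0.21, adjusted p = 0.258), *Msh3* (0.25 ± 0.18, adjusted p = 0.367) and *Mdc1* (0.02 ± 0.17, adjusted p = 0.929) were not called.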

How the data were processed

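Spatial transcriptomes of thymus sections from 2 KO mice and 1 WT mouse were used. Reads had been run by the authors with BSTMatrix and aligned with STAR, and the submitters' processing notes name GRCm38. The deposited values are raw UMI counts of each gene in each spot; the annotation release and the use of strand are not given in the sources used here.

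Spots were summed in bins of 27 µm, and bins with fewer than 300 genes or over 30% mitochondrial UMIs, or in patches under 200 connected bins, were dropped. Bins are not replicates, so UMIs were summed per section and class of bins. CPM and ratios carry exact Poisson and conditional binomial intervals. Sums were tested over all genes with at least 100 UMIs by edgeR's quasi-likelihood test (TMM, Benjamini-Hochberg), with the section as a block within sections, and the scripts were tested on simulated data. DESeq2, library totals without TMM, no section block, bin width, filters, CD3 rule, thinning, denominator, area and each section left out were alternatives. Zone comparisons without proliferation UMIs, genotype within zones and the zone interaction were added after seeing the data. The members and gene lists were chosen with earlier results of these data known. Named with values are members past 1.5-fold in both KO sections, with an adjusted p under 0.05, or at either end of their group; *Wnk4*, *Hsd17b11* and other members were added after their values were seen. Python 3.11.15, numpy 2.4.6, scipy 1.17.1, pandas 2.3.3, matplotlib 3.10.9, R 4.3.3, edgeR 4.0.16 and DESeq2 1.42.0 were used.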

Additional observations from a re-analysis of the deposited data

How the results depend on the processing

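No called member changed direction, but the median log2 ratio of -0.03 in KO1308 was 0.02 with the other denominator, 0.01 in the thymus area and 0.09 in cortex-rich bins. Of the counts of members under the alternatives, 187 stayed within 1.5 times, many of them at 0, while 35 moved further. Calls of single genes are not part of these numbers and changed more often. In cortex-rich against medulla-rich bins, 12 members raised became 7 with 2 CD3 UMIs, 4 with bins thinned to 500 UMIs and 0 without the section block. They became 3 in bins without a proliferation-marker UMI and 7 to 11 when a section was left out. Over all genes, the 1405 of 15982 raised became 905 of 14929, 422 of 10382, 0 of 15982 and, in bins without a proliferation-marker UMI, 336 of 11710. In bins with a proliferation-marker UMI, 5 became 1 in bins of 50 µm or with thinning and 3 with the log limit for CD3. They became 9 without the B-rich area, 10 without the filter on low counts, 0 without the section block and 4 to 10 when a section was left out. The genes raised moved too, from 599 of 16505 to 215 of 17321 in bins of 50 µm, 73 of 11044 with thinning and 390 of 15065 with the log limit. They were 1169 of 16273 without the B-rich area, 1607 of 33458 without the filter and 6 of 16505 without the block. Between CD3-positive and other bins, 0 became 1 in bins of 50 µm or without the B-rich area, 5 without the filter, and 0 to 3 when a section was left out. There the 12 of 17400 genes raised became 118 of 17582 in bins of 50 µm, 153 of 17167 without the B-rich area and 1079 of 34641 without the filter. Members at least 1.5-fold higher in KO1134 were 0, but 1 in bins of 20 or 50 µm, with thinning, in the thymus area and without the B-rich area, 2 with the other denominator and 3 in cortex-rich bins. The 12 lower in KO1134 became 7 in cortex-rich bins and 3 at 2-fold. The 1 higher in KO1308 became 3 in bins of 20 µm, with the log limit, in the thymus area and in either zone, 4 with 2 CD3 UMIs, 2 with thinning and 0 at 2-fold. The 4 lower in KO1308 became 9 in medulla-rich bins and 2 at 2-fold. Outside the zones, the share of all genes past the fold is not given for these alternatives. These counts therefore cannot be read as a result about the repair genes. Over 17 alternatives of the zone comparison *Lig1*, *Brca1* and *Msh6* were called in 16, *Usp1* in 15, and *Rpa2*, *Blm* and *Chek1* in 14. *Parp1* was called in 9, *Chek2* in 5, *Fanci* in 4, *Xrcc1* in 3 and *Palb2* in 2. Over all genes, DESeq2 called 265 raised and 47 lowered in KO in CD3-positive bins where edgeR called 0 and 1, and the interaction of class and genotype had 15 and 132 where edgeR had 213 and 427. A section could not be left out of the genotype fits, which then have no residual degree of freedom. The causes were not tested; thinning and the 2 CD3 UMIs leave fewer UMIs and genes to test. No paired analysis was possible because the KO and WT sections come from different mice and share only replicate number 1.

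With 1 WT section, the ratios to WT hold for these mice only. Depth limits *Atm*, *Xrcc2*, *Rad51c* and *Pms2* most.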
